A study of Mus musculus with 12 samples.

Results

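Doxorubicin poisons topoisomerase II and breaks DNA. The breaks switch on p53, a transcription factor that raises cell cycle, repair and death genes. In mouse embryonic stem cells the response also includes Dux, a transcription factor of the embryo at the 2-cell stage that turns on genes of that stage. The 4 genes described here, Eef1a2, Slc5a4a, Dmkn and Otof, came from the other side of this response: of the 54532 genes in the count table they were taken from those with the largest rises under drug in cells without Dux. The contrast of drug with vehicle in Dux KO cells, from the deposited counts, chose them, so that contrast is given as a description with no test. Their values in p53 KO and wild-type cells did not enter the choice and were tested.

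All libraries come from the E14 line of mouse embryonic stem cells, grown on gelatin with serum, LIF and the kinase inhibitors PD0325901 and CHIR99021. Dux KO, p53 KO and wild-type (WT) cells were each exposed for 6 h to 1 uM doxorubicin or to DMSO vehicle, after which every culture got medium without drug. The time from then to harvest is not given in the sources used here. Each of these 6 groups has 2 libraries of poly(A)-selected RNA, which the series calls biological duplicates. Libraries 1 and 2 of a knockout are its lines 1 and 2, and the kind of edit in either knockout is not given in the sources used here, so spread within a knockout includes the difference between lines. WT columns carry no replicate number and are called a and b.

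Total counts ran from 23270358 to 56795858 in the 11 libraries tested, and the Dux KO libraries were the deepest. The count column named for Dux KO vehicle library 2 repeated that of Dux KO drug library 1 in 54532 of 54532 genes and was left out. Its reads were recovered from the library's FPKM column for use as an alternative. Duxf3, the gene for Dux, had 0 counts in every Dux KO library, 114 and 20 counts in p53 KO drug libraries 1 and 2, and 670 and 685 counts in WT drug libraries. Trp53, the gene for p53, had 2754 and 1194 counts in p53 KO drug libraries 1 and 2, against 4182 and 3996 counts in WT drug libraries, and 1982 and 1197 counts in p53 KO vehicle libraries, against 4974 and 4246 counts in WT vehicle libraries. In CPM (counts per 1000000 counted) p53 KO drug library 1 stood at 95.5 and library 2 at 42.6, against 134.6 and 132.8 in WT drug libraries, and the part of this difference between the p53 KO libraries in the results was not tested. All 10 embryonic stem cell markers were detected in each group, with summed levels of 874 to 4551 CPM.

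By the rule, Eef1a2 ranked 1 of 28643 genes with a fitted log2 of 14.15 for drug over vehicle in Dux KO cells, Slc5a4a ranked 2 with 12.72, Dmkn ranked 3 with 12.61 and Otof ranked 5 with 11.997. Rank 4 fell to Gm15635, an antisense RNA gene that was not taken as a member, with 12.17. The next gene outside was Add2, with 11.83. These logs are fitted from a single vehicle library with 0 counts, so they order the genes and are not sizes. With the recovered vehicle library included, Slc5a4a ranked 1, Otof 3, Eef1a2 8 and Dmkn 97, and the added counts were 0 for Slc5a4a, 0 for Otof, 2 for Eef1a2 and 6 for Dmkn.

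Each of the 4 genes works in a specialised adult cell. Eef1a2 encodes eEF1A2, the elongation factor that brings aminoacyl-tRNA to the ribosome in neurons and striated muscle, where it takes over from the ubiquitous eEF1A1. Slc5a4a belongs to the SLC5 family of sodium-coupled transporters, next to the sodium-glucose carriers of gut and kidney. Dmkn encodes dermokine, a protein secreted in the upper layers of the epidermis, and its gene sits between those of suprabasin (Sbsn) and keratinocyte differentiation-associated protein (Krtdap). Otof encodes otoferlin, a calcium-binding ferlin needed for vesicle release at the ribbon synapses of inner hair cells.

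The genes lie on 4 chromosomes and overlap no other annotated gene. In GRCm38 (mm10) Eef1a2 spans chr2:181147653-181157014 on the minus strand, Slc5a4a chr10:76147451-76189265 on the plus strand, Dmkn chr7:30763756-30781063 on the plus strand and Otof chr5:30367062-30461932 on the minus strand. The authors' FPKM was divided by the length of the gene span, introns included, and whether reads in introns entered the counts is not given in the sources used here. The spans are 9362 bases for Eef1a2, 41815 for Slc5a4a, 17308 for Dmkn and 94871 for Otof, and exons make up 22.3%, 4.91%, 12.7% and 8.33% of these in the same order. Reads that match several genes are a small concern for these 4: of the 50-base words in their transcripts, 1 of 2006 in Slc5a4a also occurs in another gene, Slc5a4b, and 0 of 2035 in Eef1a2, 0 of 2282 in Dmkn and 0 of 8084 in Otof.

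The 250 bases before the start of transcription are shown so that the promoters of genes that rise together in WT cells can be compared. They come from RefSeq (GRCm38.p6), are read 5′ to 3′ on the strand of the gene, and lie at chr2:181157016-181157265 for Eef1a2 (minus strand), chr10:76147201-76147450 for Slc5a4a (plus strand), chr7:30763506-30763755 for Dmkn (plus strand) and chr7:30776155-30776404 for a second Dmkn start inside the gene (plus strand). Capitals mark the matches of the motifs searched. A further Dmkn start, 2 bases from the first, is not shown, and Otof has no entry.
Eef1a2: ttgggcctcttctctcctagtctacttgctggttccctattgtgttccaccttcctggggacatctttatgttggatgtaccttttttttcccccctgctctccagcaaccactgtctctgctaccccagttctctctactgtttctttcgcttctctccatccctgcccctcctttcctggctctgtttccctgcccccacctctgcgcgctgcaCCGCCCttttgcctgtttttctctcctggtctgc
Slc5a4a: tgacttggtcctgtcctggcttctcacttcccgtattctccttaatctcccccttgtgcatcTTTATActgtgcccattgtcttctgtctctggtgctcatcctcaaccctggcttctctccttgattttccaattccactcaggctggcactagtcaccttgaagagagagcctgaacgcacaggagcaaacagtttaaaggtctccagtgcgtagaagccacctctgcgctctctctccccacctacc
Dmkn: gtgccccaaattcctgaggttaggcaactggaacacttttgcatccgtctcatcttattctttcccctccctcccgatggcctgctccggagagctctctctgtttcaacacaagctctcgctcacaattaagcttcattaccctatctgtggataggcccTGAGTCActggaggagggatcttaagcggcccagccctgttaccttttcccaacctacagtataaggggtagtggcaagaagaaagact
Dmkn, inner start: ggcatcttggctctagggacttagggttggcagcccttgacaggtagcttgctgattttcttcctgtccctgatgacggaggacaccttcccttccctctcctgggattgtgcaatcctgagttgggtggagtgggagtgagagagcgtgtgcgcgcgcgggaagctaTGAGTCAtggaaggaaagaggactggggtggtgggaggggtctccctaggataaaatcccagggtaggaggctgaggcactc

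On both strands, 5 motifs were searched in these windows and in all 32807 windows of the same 250 bases. The p53 half-site, known to occur in pairs at p53-bound DNA, was found in 7.13% of all windows and in no window of Eef1a2, Slc5a4a or Dmkn. The core of the Dux site, TGATT and ATCA 2 bases apart, was found in 0.177% of all windows and likewise in none of these. GGGCGG, the GC box, had 1 match in Eef1a2, 34 bases before the start and on the opposite strand, and 32.7% of all windows hold it. TATAAA, the TATA box, had 1 match in Slc5a4a, 188 bases before the start and on the opposite strand, and 12.4% of all windows hold it. TGANTCA, the AP-1 site, had 1 match at each Dmkn start, 89 and 82 bases before it, and 6.75% of all windows hold it. GC content was 54% for Eef1a2, 51.6% for Slc5a4a, and 50.8% and 57.6% for the Dmkn windows, against a median of 52.4% over all windows. CG dinucleotides numbered 4, 4, 5 and 6 in these windows, against a median of 6. A match here is only a run of letters, and a window without one says nothing of the factor.

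**Figure D1:**
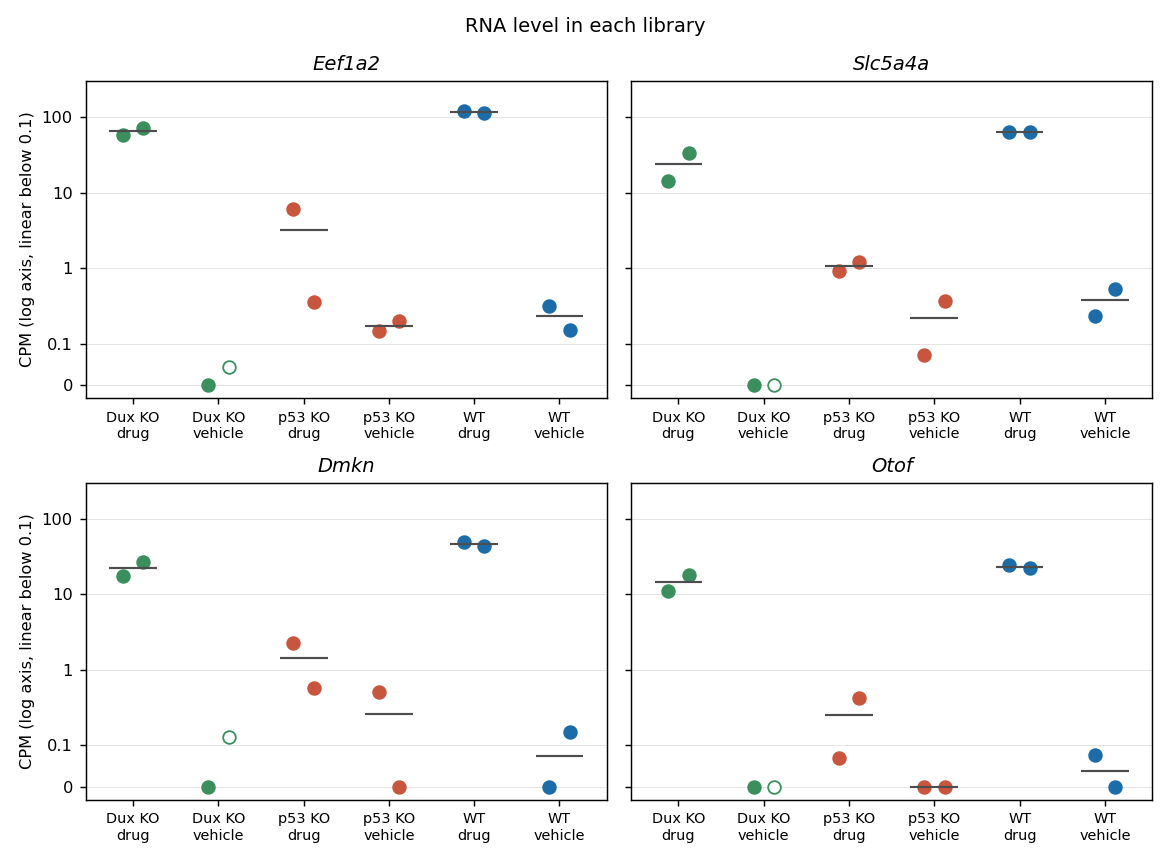
CPM of Eef1a2, Slc5a4a, Dmkn and Otof in each library (points), by genotype and treatment. The axis is logarithmic above 0.1 CPM and linear below it, lines are means of 2 libraries, and the open point is the Dux KO vehicle library recovered from FPKM. All 4 genes stand above 10 CPM in Dux KO and WT drug libraries, below 7 CPM in p53 KO drug libraries and below 1 CPM under vehicle.

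Eef1a2 had 58.4 and 71.1 CPM in Dux KO drug libraries 1 and 2, against 0 CPM in Dux KO vehicle library 1 and 0.0432 CPM in the recovered library 2. Without p53 it had 6.10 and 0.357 CPM under drug, against 0.146 and 0.200 CPM under vehicle. WT cells had 121.6 and 113.7 CPM under drug, against 0.311 and 0.1496 CPM under vehicle. Drug and vehicle libraries thus overlap in no genotype, and p53 KO line 1 stands 17.1 times above line 2 under drug.

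Slc5a4a had 14.3 and 33.5 CPM in Dux KO drug libraries, against 0 CPM in both vehicle libraries, the recovered one included. Without p53 it had 0.902 and 1.21 CPM under drug, against 0.0731 and 0.366 CPM under vehicle. WT cells had 62.7 and 64.1 CPM under drug, against 0.233 and 0.523 CPM under vehicle. Of the 4 genes it differed most between the Dux KO lines, with line 2 at 2.34 times line 1, and least between the WT drug libraries.

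Dmkn had 17.6 and 26.6 CPM in Dux KO drug libraries, against 0 CPM in vehicle library 1 and 0.1295 CPM in the recovered library 2. In p53 KO cells it had 2.29 and 0.571 CPM under drug, against 0.512 and 0 CPM under vehicle. WT cells had 49.2 and 43.1 CPM under drug, against 0 and 0.1496 CPM under vehicle. The p53 KO drug library of line 2 lies barely above the vehicle library of line 1, while the groups do not overlap in any genotype.

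Otof had 11.02 and 17.99 CPM in Dux KO drug libraries, against 0 CPM in both vehicle libraries, the recovered one included. In p53 KO cells it had 0.0694 and 0.428 CPM under drug, that is 2 and 12 counts, against 0 counts in both vehicle libraries. WT cells had 24.6 and 21.9 CPM under drug, against 0.0777 and 0 CPM under vehicle. Here p53 KO line 2 is the higher one under drug, the reverse of Eef1a2 and Dmkn.

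The first question that did not use the rule was how wild-type cells respond to the drug. All 4 genes rose, with ratios of pooled counts of 166 to 611. Eef1a2 averaged 117.7 ± 5.52 CPM under drug and 0.230 ± 0.114 CPM under vehicle (SD, n = 2 each), a ratio of pooled counts of 515 with a 95% counting interval of 295 to 997. The intervals cover counting error only. Slc5a4a averaged 63.4 ± 0.963 CPM under drug and 0.378 ± 0.205 CPM under vehicle, a ratio of 166 (interval 108 to 273). Dmkn averaged 46.1 ± 4.36 CPM under drug and 0.0748 ± 0.106 CPM under vehicle, a ratio of 606 (interval 236 to 2226). Otof averaged 23.3 ± 1.87 CPM under drug and 0.0388 ± 0.0549 CPM under vehicle, a ratio of 611 that rests on 2 vehicle counts (interval 169 to 5049).

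In the fit across all genes the WT response was log2 8.98 for Eef1a2 (SE 1.10, edgeR adjusted p = 0.000196), 7.37 for Slc5a4a (SE 0.62, adjusted p = 2.74e-05), 9.18 for Dmkn (SE 1.15, adjusted p = 0.000225) and 9.12 for Otof (SE 0.85, adjusted p = 8.36e-05). All 4 were called as higher at an adjusted p under 0.05, beside 29.0% of all genes tested (23.4% were called lower). Eef1a2 and Otof passed the filter on low counts only through drug-treated libraries. Slc5a4a had 14 counts in WT vehicle library b and Dmkn 14 counts in p53 KO vehicle library 1. The count of calls among these 4 genes supports nothing on its own. By fitted log2, 1.16% of genes stood above Eef1a2, 3.13% above Slc5a4a, 1.08% above Dmkn and 1.10% above Otof. This order includes genes with 0 counts in WT vehicle cells, whose fitted values are not sizes. The sizes rest on the few vehicle counts: leaving out WT vehicle library b gave log2 13.70 for Dmkn, 8.07 for Slc5a4a and 8.16 for Otof, and leaving out library a gave 12.72 for Otof, 9.59 for Eef1a2 and 8.24 for Dmkn, with every call kept. The 13.70 for Dmkn and the 12.72 for Otof are fitted from a remaining vehicle library with 0 counts, so they are not sizes. In the authors' deposited table the same contrast has log2 fold changes of 9.04, 7.41, 9.28 and 9.29 for Eef1a2, Slc5a4a, Dmkn and Otof.

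A second question was what remains of the rise without p53. Under drug, p53 KO cells held 2.75% of the WT level of Eef1a2, 1.67% of that of Slc5a4a, 3.10% of that of Dmkn and 1.07% of that of Otof. The fitted difference between p53 KO and WT under drug was log2 -5.18 for Eef1a2 (SE 0.84, edgeR adjusted p = 0.00113), -5.90 for Slc5a4a (SE 0.56, adjusted p = 6.36e-05), -5.01 for Dmkn (SE 0.84, adjusted p = 0.00134) and -6.54 for Otof (SE 0.68, adjusted p = 0.000176). All 4 were called as lower in p53 KO cells, beside 22.0% of all genes tested (21.7% were called higher). The calls held without any one library, and the size for 3 genes followed the p53 KO lines: without drug library 1 it was -8.35 for Eef1a2, -6.33 for Dmkn and -5.75 for Otof, and without drug library 2 it was -4.26, -4.33 and -8.32 in the same order. With the lines as a block it was -6.04 for Eef1a2. This comparison uses the same WT drug libraries as the WT response.

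Under vehicle the 2 genotypes were both near 0 and no member was called, beside 0.140% of all genes called higher and 0.747% called lower in p53 KO cells. Adjusted p ran from 0.610 for Otof to 0.977 for Eef1a2. Summed over both libraries, p53 KO against WT vehicle cells had 10 against 12 counts of Eef1a2, 13 against 20 of Slc5a4a, 14 against 4 of Dmkn and 0 against 2 of Otof. The ratio for Dmkn was 3.20 with a counting interval of 1.01 to 13.4, and that for Eef1a2 was 0.762 with an interval of 0.295 to 1.92.

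Within p53 KO cells both drug libraries stood above both vehicle libraries for all 4 genes, at low levels, and only Eef1a2 was called. Eef1a2 averaged 3.23 ± 4.06 CPM under drug and 0.173 ± 0.0379 CPM under vehicle (SD, n = 2 each), with log2 4.19 (SE 1.14, edgeR adjusted p = 0.0363), beside 9.31% of all genes called higher and 8.09% called lower. That call rested on p53 KO drug library 1: without it the value was log2 1.02 (adjusted p = 0.247), and it was also lost without any one of 8 further libraries, all but p53 KO drug library 2 and Dux KO vehicle library 1. Duxf3 was likewise higher in p53 KO drug library 1 than in library 2, with 114 against 20 counts, and its part in the result was not tested. Slc5a4a averaged 1.06 ± 0.2203 CPM under drug and 0.2197 ± 0.207 CPM under vehicle, with log2 2.21 (SE 0.68, adjusted p = 0.0546). Dmkn averaged 1.43 ± 1.21 CPM under drug and 0.256 ± 0.362 CPM under vehicle, with log2 2.52 (SE 1.01, adjusted p = 0.114). Otof averaged 0.249 ± 0.254 CPM under drug against 0 CPM under vehicle, at least 2.37-fold higher at a floor of 3 counts per library, with adjusted p = 0.0555.

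Libraries of the same number come from the same knockout line, so the response was also fitted with the line as a block. With that replicate block all 4 were called in p53 KO cells, Eef1a2 with log2 4.03 (edgeR adjusted p = 0.000144), Slc5a4a with 2.25 (adjusted p = 0.00147), Dmkn with 2.56 (adjusted p = 0.00227) and Otof with 6.19 fitted from 0 (adjusted p = 0.00459). The block moved the count of all genes called in this comparison, higher and lower together, to 10876 of 28643 tested, against 4986 without it. With so many genes called, nothing is read from the 4 calls on their own. Other single changes also added calls: Dmkn was called without p53 KO vehicle library 1 (log2 8.69) or without p53 KO drug library 2 (log2 3.20), Otof without p53 KO drug library 1 (log2 6.95), and Slc5a4a without Dux KO drug library 1 or 2 (log2 2.21 each). The 8.69 for Dmkn and the 6.95 for Otof are fitted from 0 vehicle counts and are not sizes.

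The test of the difference between the genotypes is the p53 KO response minus the WT response. Slc5a4a had log2 -5.15 (SE 1.03, edgeR adjusted p = 0.00843) and Dmkn log2 -6.66 (SE 1.74, adjusted p = 0.0271), and both were called as smaller in p53 KO cells, beside 10.3% of all genes (9.90% had larger responses). Eef1a2 had log2 -4.79 (SE 2.07, adjusted p = 0.141) and Otof log2 -2.98 (SE 17.02, adjusted p = 0.953), and neither was called. The Otof value starts from 0 counts in p53 KO vehicle cells, which leaves the size of the p53 KO response undefined. With the replicate block Eef1a2 was called as well (log2 -4.95, adjusted p = 0.00392), as it was without p53 KO drug library 1 (-7.96) or drug library 2 (-3.88). The Slc5a4a call was lost without p53 KO vehicle library 2 (log2 -3.58, adjusted p = 0.246). The Dmkn call was lost without p53 KO vehicle library 1 (log2 -0.49, adjusted p = 0.931), WT vehicle library a (-5.72), WT vehicle library b (-11.19), WT drug library a (-6.57) or WT drug library b (-6.77). Without p53 KO vehicle library 1 the p53 KO response of Dmkn starts from 0 counts, and without WT vehicle library b the WT response does. The values of -0.49 and -11.19 thus have no defined size.

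**Figure D2:**
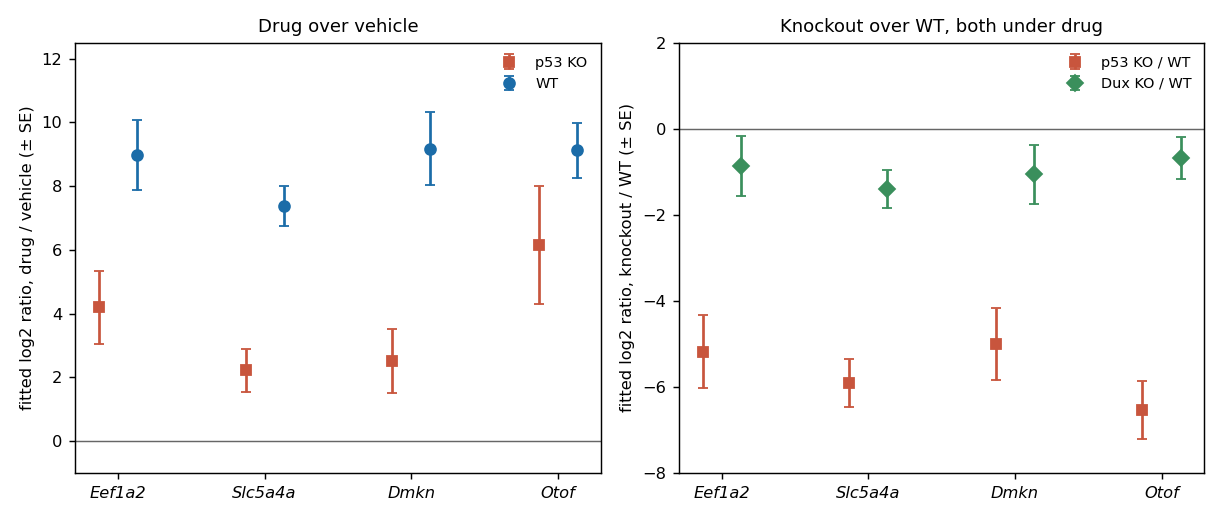
Fitted log2 ratios of the 4 genes with their standard errors. On the left, drug over vehicle in p53 KO cells (squares) and WT cells (circles), and on the right, knockout over WT under drug for p53 KO (squares) and Dux KO (diamonds). Under drug the Dux KO values lie between -1.41 and -0.68 and the p53 KO values between -6.54 and -5.01, and no test was made on the Dux KO values because those cells chose the genes.

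In Dux KO cells the same genes reached a large part of the WT level under drug. This is a description of the cells that chose the genes. Dux KO drug cells averaged 64.7 ± 8.99 CPM of Eef1a2, 55.0% of the WT drug level, and 23.9 ± 13.6 CPM of Slc5a4a, 37.7% of the WT drug level. Dmkn averaged 22.1 ± 6.36 CPM, 47.9% of the WT drug level, and Otof 14.5 ± 4.92 CPM, 62.4% of it (SD, n = 2 each). For each gene both Dux KO drug libraries lay below both WT drug libraries and above both p53 KO drug libraries. In all 4 genes line 2 was the higher Dux KO line under drug, at 1.22 to 2.34 times line 1.

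Against the lone Dux KO vehicle library, at 0 counts for all 4 genes, the drug libraries were at least 1112-fold higher for Eef1a2, 411-fold for Slc5a4a, 380-fold for Dmkn and 249-fold for Otof, at a floor of 3 counts per library. With the recovered library the ratio was 3173 for Eef1a2, which rests on 2 counts and has an interval of 878 to 26204, and 362 for Dmkn (interval 166 to 987). Slc5a4a and Otof were then at least 389-fold and 236-fold higher. An FPKM of 0 in that library allows at most 1.06 reads of Slc5a4a and 2.40 reads of Otof, because the column has 3 decimals. In that contrast 14.5% of all genes were called higher and 11.9% lower, and nothing is read from this for genes chosen by it. With 6 counts of Dmkn in the recovered vehicle library and 4 in the WT vehicle libraries, its baseline is as near to 0 in Dux KO as in WT cells.

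Ordered by mean CPM, every member ran WT drug, Dux KO drug, p53 KO drug, and then the vehicle groups. Vehicle libraries of p53 KO and WT cells overlapped or tied for every member, and those of Dux KO cells lay below both for Eef1a2 and Slc5a4a. Between the genes, the order of levels depends on the length used. Per kilobase of exon, WT drug cells had 56.5 ± 2.65 CPM of Eef1a2, 30.9 ± 0.468 of Slc5a4a, 21.1 ± 1.99 of Dmkn and 2.94 ± 0.237 of Otof. Per kilobase of gene span, as in the authors' FPKM, the WT drug levels were 13.2 ± 1.24 FPKM of Eef1a2, 2.80 ± 0.396 of Dmkn, 1.59 ± 0.0516 of Slc5a4a and 0.257 ± 0.0325 of Otof. Eef1a2 was the highest and Otof the lowest on both scales, while Slc5a4a and Dmkn changed places.

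The nearest protein-coding genes on each side of the members were read from the same fit without the replicate block, with the same background of 29.0% of all genes called higher and 23.4% called lower in WT cells. Around Dmkn 2 of the 4 neighbours rose in WT cells, both of them genes of epidermal differentiation. Sbsn, which ends 7.62 kb before Dmkn and whose product is suprabasin, had 183 and 251 CPM in Dux KO drug libraries against 2.66 CPM in the vehicle library, 11.5 and 3.18 CPM in p53 KO drug libraries against 2.23 and 2.70 CPM under vehicle, and 439.8 and 434 CPM in WT drug libraries against 5.17 and 3.93 CPM under vehicle. Its WT response was log2 6.59 (SE 0.55, edgeR adjusted p = 2.64e-05), and its p53 KO response was smaller by log2 -5.01 (SE 0.69, adjusted p = 0.00169). Of the 3317 50-base words in Sbsn transcripts, 231 (6.96%) also occur in another gene, most often Tmem147os, which overlaps it. Reads from those stretches may not be told apart. Krtdap, 6.83 kb beyond the end of Dmkn, had 16.9 ± 0.247 CPM in WT drug cells and 2.79 ± 0.776 CPM in WT vehicle cells, with log2 2.60 (SE 0.97, adjusted p = 0.0481).

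Krtdap had 5.28 and 13.3 CPM in Dux KO drug libraries, against 0.0388 CPM in vehicle library 1 and 0.907 CPM in the recovered library 2. Between p53 KO and WT cells it did not follow Dmkn. Under drug it had 20.03 ± 14.6 CPM in p53 KO cells and 16.9 ± 0.247 CPM in WT cells, a difference of log2 0.24 (SE 0.89, edgeR adjusted p = 0.844). Its p53 KO response of log2 2.26 was not called in this fit, which ignores the pairing by line. The p53 KO line 1 was above line 2 under drug (30.4 and 9.67 CPM) and under vehicle (7.82 and 0.599 CPM). Within each line Krtdap was higher under drug. The outer neighbours behaved otherwise: Gapdhs was not called in WT cells (log2 0.58, adjusted p = 0.0795) and Ffar2 fell (log2 -1.89, adjusted p = 0.0292).

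Around Otof, 3 of the 4 neighbours rose in WT cells. Drc1, a gene of motile cilia, lies on the other strand and ends 0.366 kb from the end of Otof. It had 3.47 and 7.06 CPM in Dux KO drug libraries against 0 CPM under vehicle, and 1.73 and 2.00 CPM in p53 KO drug libraries against 0.512 and 0.732 CPM under vehicle. WT drug libraries had 15.4 and 13.03 CPM of Drc1 against 0.233 and 0.0748 CPM under vehicle, with log2 6.51 (SE 0.56, edgeR adjusted p = 3.17e-05). Its p53 KO response was smaller than that of WT cells by log2 -4.93 (adjusted p = 0.00223). Cib4 rose in WT cells with log2 3.71 (adjusted p = 0.000237), and in Dux KO cells it had 0.264 and 0.328 CPM under drug against 0.116 CPM in vehicle library 1 and 0.259 CPM in the recovered library 2. The gene 1700001C02Rik rose in WT cells to 18 and 10 counts, against 0 counts under vehicle, and Selenoi fell with log2 -0.54 (adjusted p = 0.0434). Reads that run from the end of Otof into Drc1, or the reverse, were not looked for.

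Beside Slc5a4a the close copy Slc5a4b was not called in WT cells, at 3.45 ± 0.361 CPM under drug and 2.82 ± 0.355 CPM under vehicle (log2 0.29, SE 0.44, edgeR adjusted p = 0.603). Prmt2, an arginine methyltransferase gene on its other side, rose in WT cells to 11.3 ± 0.529 CPM, against 1.64 ± 0.225 CPM under vehicle (log2 2.78, adjusted p = 7.69e-05), and its p53 KO response was smaller by log2 -2.31 (adjusted p = 0.00383). Zfp280b fell slightly (log2 -0.50, adjusted p = 0.0101), and S100b had at most 6 counts in any WT library. Of the neighbours of Eef1a2, Ppdpf fell in WT cells (log2 -0.69, edgeR adjusted p = 0.00558), Chrna4 was not called (log2 0.75, adjusted p = 0.154) and Ptk6 had too few counts to be tested. Chrna4 was called higher under drug in p53 KO cells (log2 1.85, adjusted p = 0.0201) and in Dux KO cells (log2 2.09, adjusted p = 0.0168), where 1 vehicle library was tested and the spread between libraries is taken from the other groups.

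**Figure D3:**
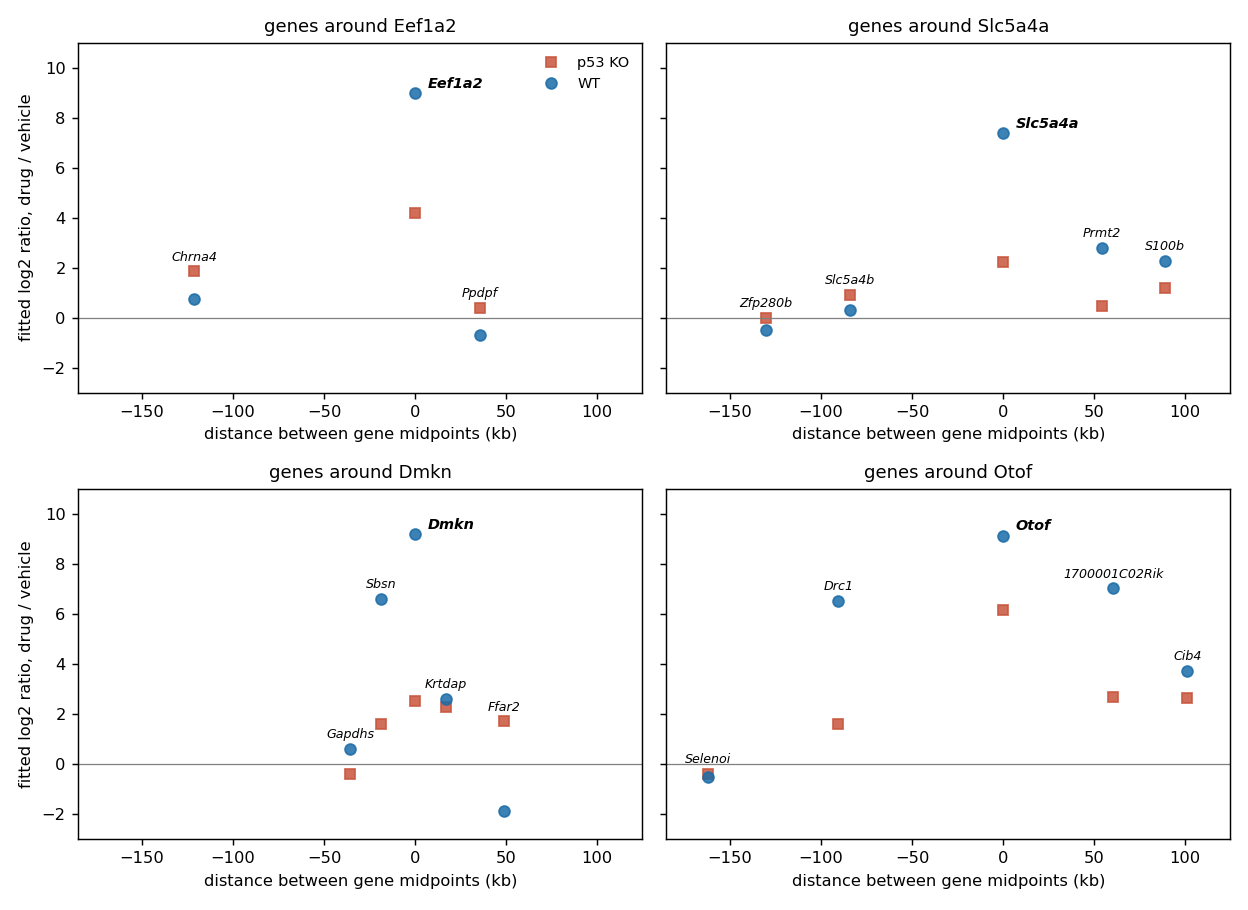
Fitted log2 ratio of drug over vehicle in p53 KO cells (squares) and WT cells (circles) for each member, at 0 kb, and its neighbours reported here, by distance in kb between gene midpoints along the chromosome, without Ptk6, which was not tested. High WT values at the neighbours appear around Dmkn (Sbsn, 6.59) and Otof (Drc1, 6.51, and 1700001C02Rik, 7.02, fitted from 0 vehicle counts), and the neighbours of Eef1a2 shown, Chrna4 and Ppdpf, do not exceed 1.85 in either genotype.

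Genes that share a role with each member were read from lists. For each list the counts called stand beside the median log2 of all genes tested, which was 0.18 in p53 KO, 0.00 in Dux KO and 0.13 in WT cells for drug over vehicle. Of all genes tested, 9.31% rose and 8.09% fell in p53 KO cells, 14.5% rose and 11.9% fell in Dux KO cells, and 29.0% rose and 23.4% fell in WT cells. Calls in p53 KO cells come from the fit without the replicate block and so ignore the pairing by line. With the block more genes were called in all, and the lists were not counted again with it. Calls in Dux KO cells rest on a single vehicle library, with the spread taken from the other groups. Each Dux KO count is therefore given again with the recovered vehicle library included, where 18.5% of all genes rose and 16.9% fell. For a gene at 0 counts in every vehicle library the level under drug is given, with its fold against a floor of 3 counts per vehicle library. Here and below, the listed gene said to rise or fall furthest is the one with the most extreme fitted log2 among those called. Genes not called can have larger fitted values. Of 16 genes for elongation factors and the enzymes that modify them, 6 fell in p53 KO cells, 7 in Dux KO cells and 12 in WT cells, and 0 rose in any of them, with medians of -0.38, -0.42 and -0.99 in the same order. With the recovered library 9 fell in Dux KO cells. Eef1a1, the ubiquitous counterpart of Eef1a2, has many processed copies in the genome, which makes its counts uncertain. It had 1771 ± 255 CPM under drug in p53 KO cells and 4781 ± 480 CPM under vehicle (log2 -1.43, edgeR adjusted p = 0.00169). In Dux KO cells it had 4933 ± 294 CPM under drug against 7332 CPM in the vehicle library (log2 -0.57, adjusted p = 0.0353), and in WT cells 2519 ± 176 CPM under drug and 4956 ± 126 CPM under vehicle (log2 -0.98, adjusted p = 0.000511). Eef1akmt3 fell furthest in p53 KO and Dux KO cells (log2 -1.59 and -3.38) and Eef2k, the kinase that inhibits eEF2, in WT cells (log2 -1.95).

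Of 12 other SLC5 transporters, 11 were tested, and 3 rose in p53 KO cells, 8 in Dux KO cells and 8 in WT cells, and 0 fell, with medians of 1.41, 2.84 and 1.85. Those medians are 1.10, 2.05 and 1.81 where genes at 0 under vehicle are set to their bound. In Dux KO cells 9 rose with the recovered library. Slc5a1, the sodium-glucose carrier of the gut, had 41.7 ± 7.21 CPM in WT drug cells and 15.6 ± 0.502 CPM in WT vehicle cells (log2 1.42, edgeR adjusted p = 0.0414). It rose furthest of those called in p53 KO cells (log2 2.55). Of those called, Slc5a8, a carrier of monocarboxylates, had the highest fitted log2 in Dux KO cells. It had 0.241 ± 0.0324 CPM under drug against 0 counts in the vehicle library, at least 4.14-fold higher. Slc5a12 was not called there and had 0.463 ± 0.0144 CPM under drug against 0 counts, at least 7.95-fold higher. Slc5a8 also rose furthest of those called in WT cells (log2 4.53, 1.84 ± 0.782 CPM under drug against 0.0762 ± 0.00206 CPM under vehicle). Slc5a4a stood above all of them in the size of its fitted WT response.

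Epidermal differentiation genes were tested in 20 of 24 cases, and 2 rose in p53 KO cells, 8 in Dux KO cells and 13 in WT cells, and 0 fell, with medians of 0.85, 1.94 and 2.51. With genes at 0 under vehicle at their bound, the Dux KO median is 1.44 and the WT median 2.34. In Dux KO cells 8 of 18 tested rose with the recovered library. Sfn and Perp of this list are also known targets of p53. The keratin gene Krt5, of basal keratinocytes, rose furthest in Dux KO cells (log2 10.69) and in WT cells (log2 10.39, edgeR adjusted p = 0.000203), where it had 364 ± 3.74 CPM under drug and 0.266 ± 0.0467 CPM under vehicle. Pkp1, for a desmosome protein, rose furthest of those called in p53 KO cells (log2 2.61), while Krt5 had log2 5.27 there and was not called. Beside Dmkn the summed level of the list ran from 199.6 to 494 CPM in p53 KO drug libraries, 865 to 1083 CPM in Dux KO drug libraries and 1454 to 1475 CPM in WT drug libraries, against 122 to 308 CPM in p53 KO vehicle, 186 CPM in Dux KO vehicle and 239 to 243 CPM in WT vehicle libraries, and its part in the Dmkn result was not tested. Sbsn, Krt5 and Perp made up much of the WT drug sum, with means of 437, 364 and 279 CPM. Ivl and Sprr1b, for proteins of the cornified envelope, were at 0 in every group but WT drug cells, where no gene of the list was at 0.

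The 5 other ferlins were all tested, and 2 rose in p53 KO cells, 2 in Dux KO cells and 4 in WT cells, with medians of 1.45, 0.82 and 3.70. In Dux KO cells 3 rose with the recovered library. Dysf, for the membrane-repair protein dysferlin, had 7.50 ± 0.3997 CPM in p53 KO drug cells and 2.74 ± 0.262 CPM under vehicle (log2 1.45, edgeR adjusted p = 0.00312), and 37.7 ± 1.97 CPM in WT drug cells and 2.90 ± 0.0783 CPM under vehicle (log2 3.70, adjusted p = 6.48e-06). The difference of these responses was log2 -2.25 (adjusted p = 0.00089). Myof, for myoferlin, rose in WT cells (log2 1.30, adjusted p = 0.0011) and had log2 0.26 in p53 KO cells (adjusted p = 0.421). Fer1l4 rose furthest in Dux KO cells (log2 8.83) and WT cells (log2 6.45), and Fer1l6 did so of those called in p53 KO cells (log2 2.18). Fer1l4 had log2 3.67 in p53 KO cells and was not called.

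Otof is known from hair cells, and of 14 hair cell and ribbon synapse genes 12 were tested. In p53 KO cells 2 rose and 1 fell, in Dux KO cells 4 rose and 3 fell, and in WT cells 6 rose and 2 fell, with medians of 0.80, 0.43 and 1.14. With the recovered library 4 of 10 tested rose and 2 fell in Dux KO cells, and 3 of the 4 and both of these were called with 1 vehicle library too. Myo7a, a myosin gene of hair cells named after its values were seen, is one that was lost: it had 41.5 ± 2.89 CPM in Dux KO drug cells, against 22.0 CPM in vehicle library 1 and 45.2 CPM in the recovered library. Pou4f3, a hair cell transcription factor, had the highest fitted rise in p53 KO cells, at 0.595 ± 0.336 CPM under drug against 0 counts under vehicle, at least 5.68-fold higher, and in Dux KO cells (log2 6.24). Slc17a8, the vesicular glutamate transporter of inner hair cells, had it in WT cells, at 0.296 ± 0.145 CPM under drug against 0 counts under vehicle, at least 2.59-fold higher. Cabp1, for a calcium-binding protein, fell furthest in Dux KO (log2 -1.40) and WT cells (log2 -2.28), and Ctbp2, which also encodes the ribbon protein, in p53 KO cells (log2 -1.17). The summed level of the list was 190.4 to 195 CPM in p53 KO drug cells, 225 to 235 CPM in Dux KO drug cells and 227 to 241 CPM in WT drug cells. Under vehicle it was 269.6 to 309 CPM in p53 KO cells, 342 CPM in Dux KO cells and 253 to 267 CPM in WT cells. Ctbp2 and Cabp1 make up much of these sums, and in WT cells Ctbp2 alone had 89.7 CPM under drug and 174 CPM under vehicle.

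**Figure D4:**
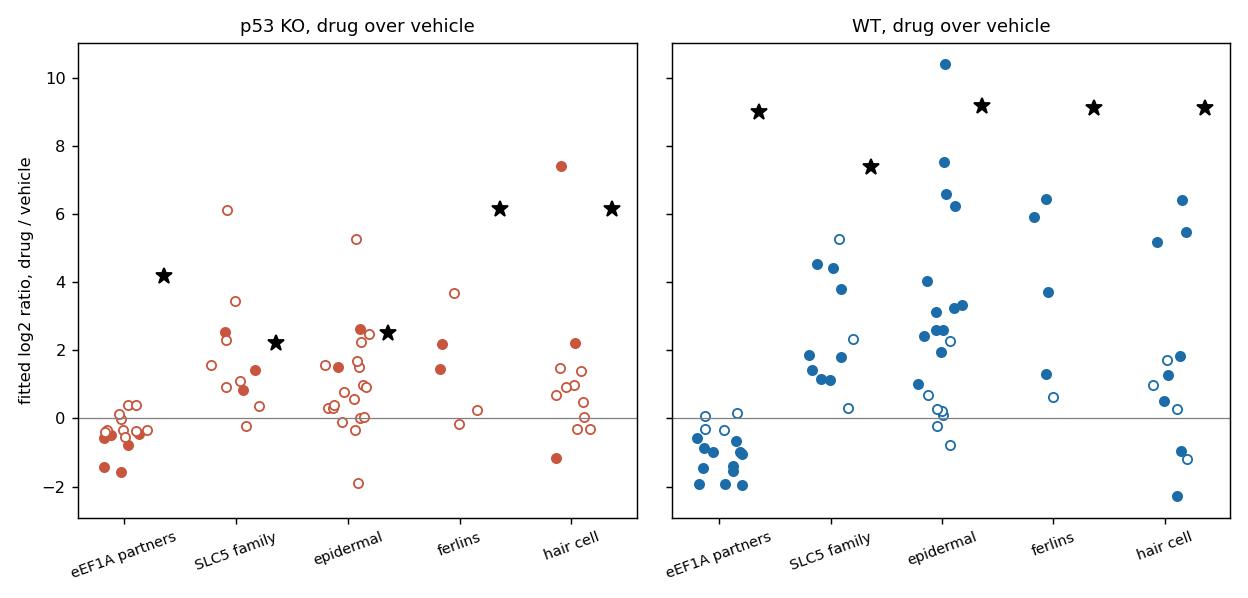
Fitted log2 ratio of drug over vehicle for the listed genes of each role (points, filled where called) and for the member they belong to (star, Otof with both ferlins and hair cell genes), in p53 KO cells on the left and WT cells on the right. The eEF1A partners lie below 0.5 in both genotypes while Eef1a2 stands at 4.19 in p53 KO cells and 8.98 in WT cells.

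Markers of tissues that use these genes were counted against the same shares of all genes. In p53 KO cells 3 of 11 neuron markers tested rose and 1 fell, and 3 of 11 skeletal muscle markers, 2 of 9 gut and kidney epithelium markers and 0 of 6 fibroblast markers rose. Dux KO cells had 0 neuron markers that rose and 2 that fell, and 4 muscle markers, 1 gut and kidney marker and 2 fibroblast markers rose. With the recovered library 1 neuron marker rose and 3 fell, 5 muscle markers rose and 2 fell, 2 gut and kidney markers rose, and 1 of 5 fibroblast markers tested rose. WT cells had 2 neuron markers that rose and 1 that fell, 5 muscle markers that rose and 1 that fell, 5 gut and kidney markers that rose, and 3 fibroblast markers that rose and 1 that fell. Of those called, Gap43 (log2 2.43), Myog (4.14) and Cubn (3.85) rose furthest in p53 KO cells and Stmn2 (-1.12) fell furthest. Tnnt3 (4.49) and Slc34a1 (5.35, fitted from 0 vehicle counts) were higher there and not called. Ckm (7.76), Slc34a1 and Col1a1 (2.70) rose furthest in Dux KO cells and Stmn2 (-2.81) fell furthest. Snap25, Ckm (8.02), Slc34a1 and Col1a2 (4.42) rose furthest in WT cells, and Stmn2 (-3.39), Myh3 (-1.49) and Pdgfrb (-1.83) fell furthest. Slc34a1, for a phosphate carrier of the kidney, had 3.50 ± 1.27 CPM in Dux KO drug cells and 8.42 ± 1.66 CPM in WT drug cells, against 0 counts under vehicle in both, at least 60.2-fold and 73.6-fold higher. Snap25, of the neuronal synapse, had 0.783 ± 0.167 CPM in WT drug cells against 0 counts under vehicle, at least 6.84-fold higher. Summed neuron markers were 167 to 278 CPM in p53 KO, 119 to 126 CPM in Dux KO and 325 to 389 CPM in WT drug cells, against 245 to 286 CPM, 512 CPM and 397 to 422 CPM under vehicle in the same order. Summed muscle markers were 39.7 to 45.7 CPM in p53 KO, 165.6 to 219 CPM in Dux KO and 233 to 250.02 CPM in WT drug cells, against 32.1 to 33.4 CPM, 10.9 CPM and 23.9 to 27.9 CPM under vehicle. Summed gut and kidney markers were 55.6 to 76.8 CPM, 22.8 to 27.8 CPM and 66.4 to 90.4 CPM under drug in that order, against 28.5 to 29.5 CPM, 13.8 CPM and 23.7 to 25.5 CPM under vehicle. Few genes made up much of these sums in WT drug cells. They were Nefm (169.5 CPM) and Nefl (106.4 CPM) for neuron, Ckm (119.7 CPM) and Des (102.6 CPM) for muscle, and Lrp2 (55.4 CPM) for gut and kidney. The part of these tissue markers in the results for the 4 genes was not tested. In these bulk libraries a few cells of another type and a little RNA in every cell cannot be told apart.

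Of 10 stem cell markers, 7 fell in p53 KO, 8 in Dux KO and 10 in WT cells, with Zfp42 (log2 -1.45 in p53 KO, -1.85 in Dux KO) and Fgf4 (-3.31 in WT) furthest. With the recovered library 7 of 10 fell in Dux KO cells. Of 30 genes listed as p53 targets, 6 rose in p53 KO, 17 in Dux KO and 18 in WT cells, while 3, 0 and 2 fell, and with the recovered library 19 rose and 1 fell in Dux KO cells. Whether each listed gene is a p53 target in these cells was not tested. Plk2 rose furthest in p53 KO cells (log2 3.44) and Fas in Dux KO and WT cells (7.30 and 5.17), and Cdkn1a fell furthest in p53 KO (-0.90) and Ddb2 in WT cells (-0.996). Of 16 genes of the 2-cell stage, Duxf3 and its known targets, 2 rose in p53 KO, 1 in Dux KO and 16 in WT cells, with medians of 0.89, 0.00 and 8.54 (8.47 in WT cells with genes at 0 at their bound), and 1 rose in Dux KO cells with the recovered library too. Many of them have near-identical copies, so single values are uncertain. Tmem92 (log2 2.55) led in p53 KO cells, Sp110 in Dux KO cells (2.20 ± 0.573 CPM under drug against 0 counts under vehicle, at least 37.7-fold higher) and Tcstv3 in WT cells (31.1 ± 2.64 CPM under drug against 0 counts under vehicle, at least 272-fold higher). Summed, these genes stood at 2.87 to 4.11 CPM in Dux KO drug cells.

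Genes with the most similar profile were found by the root-mean-square difference of centred log2 CPM over the 11 libraries, among 19975 genes with a mean of at least 1 CPM. For Eef1a2 the nearest were Robo3 (0.71), Siglec1 (0.71), Gm15635 (0.81), Col6a4 (0.92) and Itgb2 (0.93). Among those of Slc5a4a were Add2 (0.69), Apol10b (0.73), Ltf (0.79) and Coro2a (0.82). Dmkn was nearest to AC154546.2 (0.78), Matn4 (0.87), Kcnj15 (1.00), Gm26815 (1.01) and Robo3 (1.04). Genes near Otof included Zfp648 (0.72), Ankk1 (0.72), Ugt1a1 (0.75) and Gm15635 (0.76). No member was among the nearest 5 of another. The closest pair of members was Slc5a4a and Otof at 1.02, with Otof ranked 36 from Slc5a4a and Slc5a4a ranked 26 from Otof, and the farthest was Dmkn and Otof at 1.48. All these profiles share the same libraries, among them those that chose the members.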

How the data were processed

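Poly(A) RNA libraries of E14 mouse embryonic stem cells were analysed from the tables the authors deposited. Raw read counts per gene and FPKM were deposited by the authors, with FPKM divided by the gene span, introns included. TopHat2, DESeq and DESeq2, with the mm10 build, are named in the submitters' processing notes. The counter, the use of strand and all versions are not given in the sources used here. The authors deposited a table of log2 fold changes and adjusted p-values, used once.

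The 4 members and the 12 gene lists (173 genes) were chosen with earlier results of these data known. Besides the members, the text names the 2 nearest protein-coding genes on each side, relatives from the lists, the called list genes that rose or fell most, and the 5 most similar profiles. A few of the genes this names are not reported here.

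Counts of 11 libraries were fitted together with edgeR 4.0.16 (R 4.3.3, TMM, quasi-likelihood, Benjamini-Hochberg over 28643 genes that passed filterByExpr with a minimum count of 10, 5 residual degrees of freedom). SE is the log2 value over the square root of F. On simulated counts for WT drug over vehicle, the fit called 30 of 100 genes raised 2-fold and 95 of 100 raised 8-fold. A modest change can thus go uncalled. CPM is per 1000000 counts in genes after TMM scaling, and ratios of pooled counts have 95% Clopper-Pearson intervals. The column of Dux KO vehicle library 2 was recovered from FPKM, where 99.9% of 3590 low values lay within 0.15 of a whole read, and it totals 55645040 reads. Columns of group averages (6) were not used. Libraries held 23270358 to 56795858 counts, and a floor of 3 counts per library limits values at 0.

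Libraries of the same number share a knockout line by the labels, so the numbers pair the p53 KO samples: line 1 minus line 2 correlated between drug and vehicle libraries (r = 0.43 across 28643 genes, which are not independent). WT libraries have no such pairing here. Alternatives (21 per tested result) used DESeq2 1.42.0, limma 3.58.1 on log2(FPKM + 1) or log2(FPKM + 0.1), the replicate block, another scaling, other filters and leaving out each library. Whether duplicates were separate cultures is known only from the series calling them biological, and p-values measure the spread between these samples.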

Additional observations from a re-analysis of the deposited data

Results flagged for a closer look

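A test of the p53 KO response minus the WT response (edgeR, adjusted p under 0.05) picked out 2 of the 4 genes, Slc5a4a (log2 -5.15) and Dmkn (log2 -6.66), both smaller in p53 KO cells. Of all genes tested, 10.3% had smaller and 9.90% larger responses. Of 11 fits that each left out 1 library, 5 lost the Dmkn call and 1 lost the Slc5a4a call. Among the neighbours the response was smaller in p53 KO cells for Prmt2 (-2.31), Sbsn (-5.01) and Drc1 (-4.93), and it differed the other way for Ppdpf (1.07) and Ffar2 (3.59). Among the listed relatives named in the text, which are not all of those called, it was smaller for Dysf (-2.25), Myof (-1.04) and Fer1l6 (-3.74), and the difference was positive for Eef2k (1.61) and Cabp1 (1.95). Of the tissue markers named, Snap25 (-7.06, fitted from 0 WT vehicle counts), Ckm (-6.83), Col1a1 (-2.66) and Col1a2 (-5.39) had smaller responses in p53 KO cells, and Stmn2 (2.27), Myh3 (1.57) and Pdgfrb (2.46), which fell in WT cells, had positive differences. The stem cell marker Fgf4 (2.27) and Ddb2 (1.14), from the list of p53 targets, fell in WT cells and also had positive differences, while Cdkn1a of the same list as Ddb2 had -2.14. The 2-cell genes Tcstv3 (-11.04, fitted from 0 WT vehicle counts), Tmem92 (-6.48) and Sp110 (-6.38) had smaller responses in p53 KO cells. With 2 libraries per group no group was searched for single libraries that stand apart.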

How the results depend on the processing

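The rise of all 4 genes in WT cells and their lower level in p53 KO than in WT drug cells kept direction and call under each alternative that gave a value, 21 for Eef1a2, Slc5a4a and Dmkn and 19 for Otof, which is below the FPKM filter. Leaving out 1 library at a time, the WT log2 ran from 8.55 to 9.59 for Eef1a2, 6.91 to 8.07 for Slc5a4a, 8.24 to 13.70 for Dmkn and 8.16 to 12.72 for Otof, and p53 KO over WT under drug from -8.35 to -4.26, -6.13 to -5.70, -6.33 to -4.33 and -8.32 to -5.75. The upper WT ends for Dmkn and Otof are fitted from 0 vehicle counts and are not sizes.

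The p53 KO response is at the limit of these counts. Leaving out 1 library it ran from 1.02 to 5.11 for Eef1a2, 1.52 to 3.79 for Slc5a4a, 1.202 to 8.69 for Dmkn and 4.39 to 6.95 for Otof, and its difference from the WT response from -7.96 to -3.88, -5.85 to -3.58, -11.19 to -0.49 and -6.54 to -1.99. For Dmkn the 8.69, -11.19 and -0.49 start from 0 vehicle counts in 1 genotype and are not sizes. The Otof values start from 0 counts in p53 KO vehicle cells and are not sizes either. The Eef1a2 call in p53 KO cells was lost with only the groups compared (4.10) and under limma with pseudocounts of 1 (0.41, with or without the filter) and 0.1 (1.59). Calls were added for Slc5a4a and Otof without a filter (2.23 and 6.14) and by DESeq2 (2.22 and 5.25). The replicate block added Slc5a4a (2.25, or 2.27 with the recovered library), Dmkn (2.56 or 2.59) and Otof (6.19 or 6.24), and the difference for Eef1a2 (-4.95 or -5.04), and it changed no other call of the 4 genes. That difference was also called by DESeq2 (-4.93) and limma (-3.37 with a pseudocount of 1, filtered or not, and -5.14 with 0.1), and the Otof one by unfiltered limma (-0.32). The cause of these shifts was not tested. Under vehicle, p53 KO over WT changed sign for Eef1a2 without WT vehicle library a (0.21, range -0.82 to 0.21) and for Dmkn without p53 KO vehicle library 1 (-4.52, range -4.52 to 6.18), with no call. Both ends of that Dmkn range are fitted from 0 counts in 1 genotype.

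Counts of all genes called moved with the method. In WT cells 14997 became 7846 and 7969 under limma with pseudocounts of 1 and 0.1, and 10397 to 16159 leaving out a library. In p53 KO cells 4986 became 10876 with the replicate block, 8306 with block and recovered library, 2229 and 2281 under limma, 3267 to 5168 leaving out a library, and 0 under edgeR with only the groups compared, where 5183 had an unadjusted p under 0.05. For the difference of responses 5798 became 10796 and 8710 with the block, and 3077 to 6357. For p53 KO against WT, 12527 under drug became 8025 and 7954 under limma, and 8184 to 13557, while 254 under vehicle became 1312 by DESeq2, 3450 and 1830 with the block, 25 with only the groups compared, 43, 111 and 41 under limma, and 30 to 775. The share of calls that were higher was 55.3% against 43.2% and 41.5% (64.7% unfiltered) under limma in WT cells, 53.5% against 79.9% and 79.5% (87.8% unfiltered), and 36.7% without WT drug library b, in p53 KO cells, 48.9% against 61.7% and 65.8% for the difference of responses, 49.7% against 65.2% and 66.5% for p53 KO over WT under drug, and 15.7% against 46.6% with the block and 41.8% by DESeq2 for the same under vehicle. The median log2 of all genes in WT cells was 0.13, against -0.16 and -0.24 under limma (0.01 unfiltered) and 0.23 with RLE size factors, for the difference of responses 0.05, against 0.28 and 0.399, and for p53 KO over WT under drug 0.02, against 0.26 and 0.36.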
